A study of Mus musculus with 11 samples.

Results

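The addition of NICD1 to NICD2 in mouse liver was read from the 2 arrays labelled NICD1&2 and the 3 labelled NICD2, out of 11 arrays in the series, over all probes apart from controls. NICD1 is the intracellular domain of the receptor Notch1, and NICD2 that of Notch2. Both were delivered to male C57Bl6/J mice, 8 weeks old, with adeno-associated virus of capsid 8 (AAV8) under the CMV promoter, which is not restricted to hepatocytes. Whole liver was taken 5 days later. NICD2 mice received 3e+11 viral genomes of NICD2 vector and 3e+11 of a vector for green fluorescent protein (GFP), and NICD1&2 mice had 3e+11 of NICD1 vector and 3e+11 of NICD2 vector without any GFP vector. The total was 6e+11 in every group, so adding NICD1 vector and removing GFP vector cannot be told apart here. The same replacement was made without NICD2 in the 3 NICD1 arrays (3e+11 NICD1 and 3e+11 GFP vector) and the 3 GFP arrays (6e+11 GFP vector). These other groups are used as a reference, and they share no array with the 5 compared. The methods speak of several mice per group, but the labels do not tie each array to its own mouse, so the spread between arrays may be partly technical.

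When a Notch receptor is bound by a Delta-like or Jagged ligand on a neighbouring cell, proteases release its intracellular domain. The domain enters the nucleus and joins the DNA-binding protein RBPJ and a mastermind-like co-activator to switch on genes such as the Hes and Hey repressors and Nrarp, a feedback inhibitor. In liver, Notch signalling is known for steering cells toward the bile duct lineage. An added intracellular domain needs neither ligand nor cleavage.

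Levels are given as log2 of the array signal less the 75th percentile of the same array, so that a level of 0 is the signal at that percentile. A probe was tested if it stood well above background, as the scanning software judged it, on at least 2 of the 11 arrays. This kept 36049 of 56605 probes, for 16633 of 22911 named genes. Differences are NICD1&2 less NICD2 on the log2 scale, with the standard error (SE) of a limma fit that pools the spread of all 4 groups and p-values adjusted by Benjamini-Hochberg over all 36049 probes. A probe is called at an adjusted p under 0.05, and altered at the looser definition used in the study, an unadjusted P under 0.15 with a fold change over 1.8. With 2 arrays against 3, an exact permutation test has 10 splits and cannot go below p = 0.1.

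Between 57.0% and 60.7% of spots were well above background on the 5 arrays. The 75th percentile itself was lower on both NICD1&2 arrays, at 150 and 141 signal units, than on the NICD2 arrays, at 155 to 193. After that percentile was subtracted the median gene lay 0.09 above NICD2, and 66.3% of genes were higher. That shift depends on the arrays and the scaling, at 0.02 without NICD1&2 2, 0.17 without NICD1&2 1, 0.01 with quantile normalization and 0.0056 with normexp. The share of probes higher was 63.9%, and 51.2% and 50.5% with those scalings, so counts of higher members below are read against it. The arrays were run on 2 slides, each with 1 NICD1&2 array, beside NICD2 1 and NICD2 2 on slide 1 and NICD2 3 on slide 2. Hepatocyte markers such as Alb and Hnf4a were well above background on all 5 arrays, and the summed level of 8 hepatocyte markers was 4450 to 4728 on NICD1&2 and 3907 to 4471 on NICD2 arrays, in units of the 75th percentile.

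Most of the genes that had responded to the vectors in earlier results differed by under 0.5 between NICD1&2 and NICD2. Wfdc3, a gene of the WAP protease inhibitor family, shows the values in full. Its level was -4.23, -3.77 and -4.35 on GFP arrays, -1.24, -0.95 and -1.13 on NICD1, 0.81, 0.99 and 1.18 on NICD2, and 0.89 and 1.51 on NICD1&2. The groups with NICD2 overlapped, and NICD1&2 less NICD2 was 0.21 ± 0.23 (SE; 95% interval -0.31 to 0.72; adjusted p = 0.737). The upper bound of that interval is far below the difference of 3.01 ± 0.20 between NICD1 and GFP (adjusted p = 0.00244). The difference between the effect with NICD2 and the effect without it was -2.80 ± 0.31, the lowest adjusted p of all probes for this interaction, but it missed the threshold (adjusted p = 0.136). A dimmer Wfdc3 probe, not well above background on any GFP array, gave an interaction of -1.42 ± 0.40 (adjusted p = 0.645).

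Pfkfb4, an enzyme that sets the level of an activator of glycolysis, had a similarly small difference. Its levels were 0.04, 0.14 and 0.23 on NICD2 arrays and 0.23 and 0.30 on NICD1&2, barely without overlap, a difference of 0.13 ± 0.21 (adjusted p = 0.826). Without NICD2, its level on NICD1 arrays lay 1.97 ± 0.19 above that on GFP arrays (adjusted p = 0.035). Krt79, an epithelial keratin, lay below NICD2. It stood at 0.81, 0.61 and 0.97 on NICD2 arrays and at 0.23 and 0.55 on NICD1&2, without overlap (-0.41 ± 0.21, adjusted p = 0.578). Scgb1a1, a secretoglobin of airway epithelium, overlapped, at -1.02, -0.11 and -0.15 against -0.56 and 0.36. So did the serine protease Tmprss7, at -1.16, -1.19 and -0.94 against -0.96 and -0.81, and the lipase-related Pnliprp1, at -2.06, -2.50 and -2.14 against -2.55 and -1.96. These genes were picked from earlier results on the same arrays, so their levels against GFP are no independent finding. Mfsd13b differed most, by 1.08 ± 0.87, at -4.13, -6.57 and -3.96 against -4.82 and -2.79, with overlap (adjusted p = 0.656). Of these 7 genes, Wfdc3 and Pfkfb4 among them, 5 were higher and 2 lower, and 0 were altered.

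Promoter sequence was read for the genes on which these readouts turn, because RBPJ is the DNA-binding partner of both domains. The 250 bases before the annotated start are from RefSeq (GRCm38.p6), and capitals mark the RBPJ core TGGGAA or its reverse complement TTCCCA, which 21.6% of all 32851 promoters in the table hold on either strand. Of 56 genes named by rule in this comparison, 42 had a promoter in that table. Wfdc3 lies at chr2:164743268-164743517 on the minus strand and holds the core at 109 and 9 bases before the start. Krt79 lies at chr15:101940325-101940574 on the minus strand and holds it at 144 bases before the start. Nrarp lies at chr2:25180508-25180757 on the plus strand, and these letters were not in the window.
Wfdc3: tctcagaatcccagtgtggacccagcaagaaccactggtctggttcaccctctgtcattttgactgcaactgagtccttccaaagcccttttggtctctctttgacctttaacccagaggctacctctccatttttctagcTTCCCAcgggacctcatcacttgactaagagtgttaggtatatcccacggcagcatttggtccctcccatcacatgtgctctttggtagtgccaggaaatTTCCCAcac
Krt79: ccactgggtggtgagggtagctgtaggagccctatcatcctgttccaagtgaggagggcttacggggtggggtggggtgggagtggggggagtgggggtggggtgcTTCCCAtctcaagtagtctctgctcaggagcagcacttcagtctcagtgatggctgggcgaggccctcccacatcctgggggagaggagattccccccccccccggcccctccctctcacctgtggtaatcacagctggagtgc
Nrarp: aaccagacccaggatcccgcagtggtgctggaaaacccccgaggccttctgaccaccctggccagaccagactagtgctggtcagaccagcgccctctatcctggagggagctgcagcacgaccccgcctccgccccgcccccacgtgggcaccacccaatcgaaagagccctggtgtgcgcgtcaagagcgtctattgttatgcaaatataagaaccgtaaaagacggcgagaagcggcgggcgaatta

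Receptors came next. The Notch1 probe read 0.64, -0.38 and 0.28 on NICD2 arrays and 1.1 and 0.32 on NICD1&2, with overlap (0.53 ± 0.32, adjusted p = 0.596). It read 0.69, 0.66 and 0.30 on GFP and 0.56, 0.81 and 0.96 on NICD1 arrays, so the probe did not separate arrays that received NICD1 vector from those that did not. The Notch2 probe read 1.85, 2.06 and 1.99 on NICD2 and 1.77 and 1.74 on NICD1&2, just without overlap (-0.21 ± 0.11, adjusted p = 0.578). The files do not place either probe within its transcript, so neither level checks that a vector was present. Among the 23 receptors, ligands and core components tested, from the ligand Dll4 to Rbpj, 16 were higher and 7 lower, 0 were altered, and the median of 0.06 was below the 0.09 of all genes.

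Among Notch targets, Nrarp read -2.69, -2.58 and -2.10 on NICD2 arrays and -1.85 on both NICD1&2 arrays, above all 3 (0.60 ± 0.64, adjusted p = 0.727). On GFP arrays it was well above background on 0 of 3. Hes1, the best known Notch-driven repressor, overlapped at -1.41, -1.06 and -0.08 against -1.11 and -1.15 (-0.28 ± 0.50, adjusted p = 0.842). Its relative Hey1 read -2.42, -2.42 and -2.15 against -1.93 and -1.88, without overlap (0.42 ± 0.17, adjusted p = 0.564). Dtx1, a ubiquitin ligase that binds the Notch intracellular domain, went the other way, at -1.93, -1.85 and -1.71 against -2.46 and -2.68 (-0.74 ± 0.17, adjusted p = 0.548). Spp1, a secreted phosphoprotein of bile duct cells, read 4.44, 4.88 and 4.78 against 4.95 and 5.28 (0.42 ± 0.22, adjusted p = 0.581). Of the other targets, Hes6, Sox9, Notch3, Jag1, Ccnd1 and Gata3 differed by 0.01 to 0.39, and Heyl and Bcl2 by -0.21 and -0.07. The signs for Jag1 and Gata3 turned with another scaling.

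Of 16 targets 2, Myc and Id1, met the looser definition, which 1.78% of all genes met in the higher direction. Myc, a growth-driving transcription factor, read -2.29, -1.24 and -0.88 on NICD2 and -0.12 and 0.99 on NICD1&2. The NICD1&2 arrays were the higher ones, but the spread was wide, and the difference of 1.90 ± 1.19 missed the threshold (adjusted p = 0.603). GFP arrays alone ran from -2.40 to 1.38. A second Myc probe differed by 0.87 ± 0.81. Id1, an inhibitor of basic helix-loop-helix factors and a target of bone morphogenetic protein signalling, read 2.28, 2.02 and 1.89 against 3.17 and 2.78 (0.91 ± 0.40, adjusted p = 0.564). Over the 16 targets tested, 0 were called, 12 were higher, and 7 lay above NICD2 without overlap, 43.8% beside 18.2% of all genes, while 1 lay below, beside 7.27%. At an unadjusted P under 0.05 there were 3 higher and 1 lower, beside 8.46% of all genes in either direction. Their median of 0.35 compares with 0.09 for all genes, and it was 0.28 beside 0.01 with quantile normalization.

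**Figure D1:**
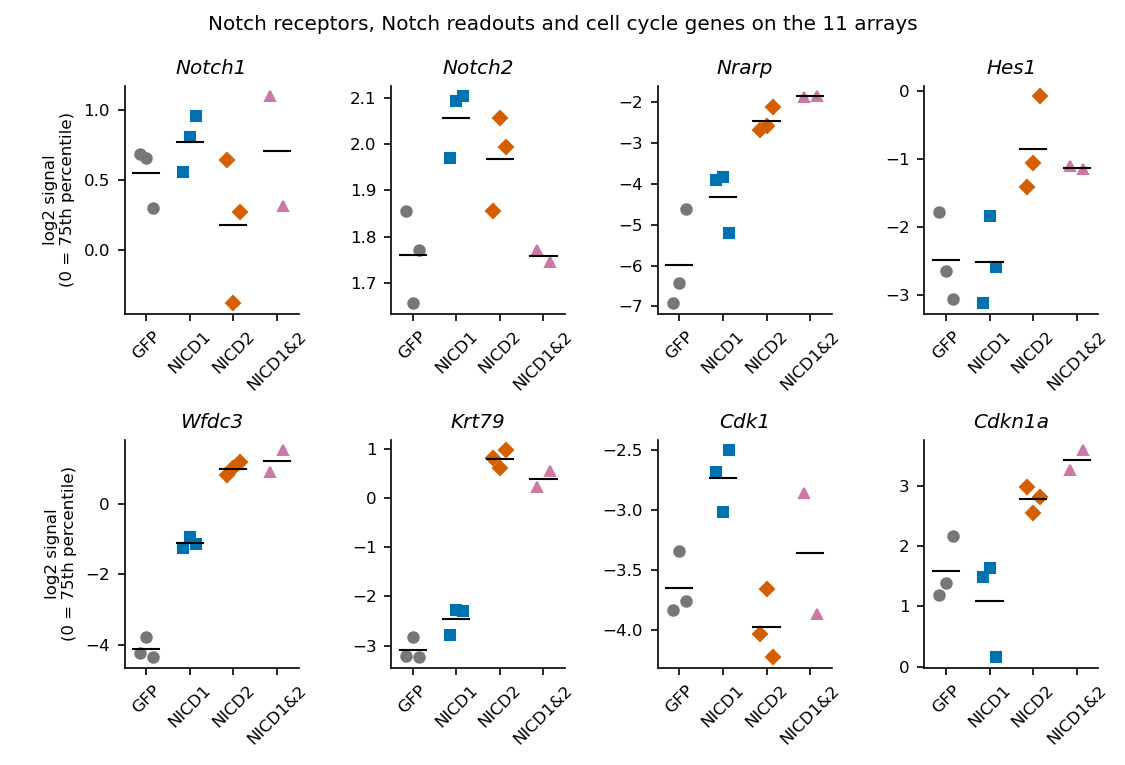
Log2 level (0 is the 75th percentile of the array) of 8 genes on the 11 arrays, with points for arrays and a bar for the group mean. NICD1&2 overlaps NICD2 for Wfdc3 and Hes1, lies above it for Nrarp and below it for Krt79, and for Notch1 one NICD1&2 array is above all other groups and the other within them.

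Over the whole array 1 of 36049 probes was called (0.00277%), a probe for the histone demethylase gene Kdm4a. It read -4.12, -4.38 and -4.12 on NICD2 and -6.25 and -6.19 on NICD1&2, with an adjusted p of 0.0297. Both NICD1&2 arrays were below every NICD2 array, and the probe was well above background on all 3 NICD2 arrays and on 0 of 2 NICD1&2 arrays. Against the lowest signal that counted as well above background it was 1.01-fold lower, so the size of the fall is not measured. A brighter probe of the same gene, at 1.55, 1.64 and 1.49 on NICD2, lay higher on NICD1&2, at 1.88 and 1.93 (0.35 ± 0.10, adjusted p = 0.564). The probes of Kdm4a therefore disagree. It was not called when any NICD2 array or NICD1&2 2 was left out (adjusted p = 0.0849 to 0.374), nor with slide as a block (adjusted p = 0.135). Without NICD1&2 1 the number of called probes was 122.

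At an unadjusted P under 0.05 there were 3178 probes, 2122 of them higher and 1056 lower, where 1802 would be expected with no effect. The number was 6400 without NICD1&2 1, 1535 without NICD1&2 2, 1851 without NICD2 2, 3550 without NICD2 1 and 3196 without NICD2 3. It was 1873 with array weights, 3426 with quantile normalization, 4075 with normexp and 3305 with slide as a block. The looser definition altered 1105 probes (3.07%), 769 higher (2.13%) and 336 lower (0.932%), for 531 named genes. Of these, 860 did not overlap between the groups, 625 higher and 235 lower, where 17.8% of all probes were higher without overlap and 7.25% lower. The definition uses p and fold change of the same arrays and so favours non-overlap, which makes that count a description. Over all 1105 the median adjusted p was 0.564, and 192 were well above background on all 5 arrays. The split of 69.6% higher depends on the scaling, since quantile normalization made it 37.2%.

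Genes were then ranked by p among altered named probes whose groups did not overlap and that were well above background on every array of one group. The values that chose them are the comparison's own, so their separation is a description. The first of those higher was Prx, periaxin of Schwann cells, at -4.32, -4.03 and -4.19 on NICD2 and -3.20 and -3.02 on NICD1&2 (1.07 ± 0.13, 2.10-fold, adjusted p = 0.191). A brighter Prx probe overlapped (0.52 ± 0.37, adjusted p = 0.632). Spin4, a reader of histone marks, was not well above background on any NICD2 array and read -3.73 and -3.85 on NICD1&2 (adjusted p = 0.191). That was 1.76-fold above the lowest signal that counted as well above background on NICD2 arrays. Spin4 was not well above background on the GFP or NICD1 arrays either. Il5ra, the interleukin-5 receptor chain, likewise not well above background on NICD2, was 1.74-fold higher on the same measure (adjusted p = 0.522).

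Most other genes of this ranking were dim. Tbck, a kinase-like gene, read -4.98, -4.46 and -5.17 against -3.77 and -3.41 (1.27 ± 0.20, adjusted p = 0.408), and another, brighter Tbck probe differed by -0.65 ± 0.20. The lncRNA gene Mir100hg read -3.62, -4.17 and -3.48 against -2.68 and -2.57 (1.13 ± 0.21, adjusted p = 0.51). D5Ertd605e and 4930579G24Rik, which have no known product, differed by 1.02 ± 0.14 and 1.08 ± 0.21. A pair of brighter genes stood with them. Syne3, a nesprin that ties the nucleus to the cytoskeleton, read -1.25, -1.34 and -1.80 on NICD2 and -0.15 and 0.22 on NICD1&2 (1.496 ± 0.29, 2.82-fold, adjusted p = 0.522). Its GFP levels were 0.05, -0.14 and -0.87, so NICD1&2 stood near GFP and above NICD2. The other, Acot1, belongs to the fatty acid genes described below.

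On the lower side, Nav2, a neuron navigator protein, read -1.67, -1.29 and -1.51 on NICD2 and -2.71 and -2.64 on NICD1&2 (-1.18 ± 0.17, 2.26-fold lower, adjusted p = 0.376). GFP arrays read -2.77, -2.22 and -2.33 and NICD1 arrays -1.75, -1.63 and -1.62, so arrays with either vector alone read higher than GFP, and NICD1&2 arrays lay in the GFP range. The interaction was -1.95 ± 0.23 (adjusted p = 0.163). Another Nav2 probe differed by -0.43 ± 0.17. Ablim1, an actin-binding LIM protein, read -0.54, -0.52 and -0.36 against -1.34 and -1.48 (-0.94 ± 0.16, adjusted p = 0.494). Tle3, a Groucho-family co-repressor that works with Hes proteins, read 0.90, 0.73 and 0.84 against -0.07 and -0.16 (-0.94 ± 0.18, adjusted p = 0.522). A further Tle3 probe differed by -0.73 ± 0.30, in the same direction.

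Hhat, which attaches palmitate to Hedgehog proteins, read -1.76, -1.90 and -2.55 against -3.58 and -3.26 (-1.35 ± 0.23, adjusted p = 0.497), while its other probe differed by 0.12 ± 0.12. The kinase gene Fer differed by -0.95 ± 0.17 (adjusted p = 0.51), with further probes at -0.37 and -0.11. Zfp719, a zinc finger gene, differed by -1.05 ± 0.14 (adjusted p = 0.241) on one probe and by 0.02 ± 0.28 on another. The ranked probes of Polh, a DNA polymerase that copies past damage, of the Golgi complex gene Cog5 and of the calcium pump gene Atp2b2 were well above background on 0 of 2 NICD1&2 arrays. Against the lowest signal well above background, these probes were 1.08-fold, 1.11-fold and 1.43-fold lower (adjusted p = 0.191, 0.497 and 0.51). Other probes overlapped, with differences of -0.23 ± 0.26 for Polh and -0.34 ± 0.41 for Atp2b2.

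**Figure D2:**
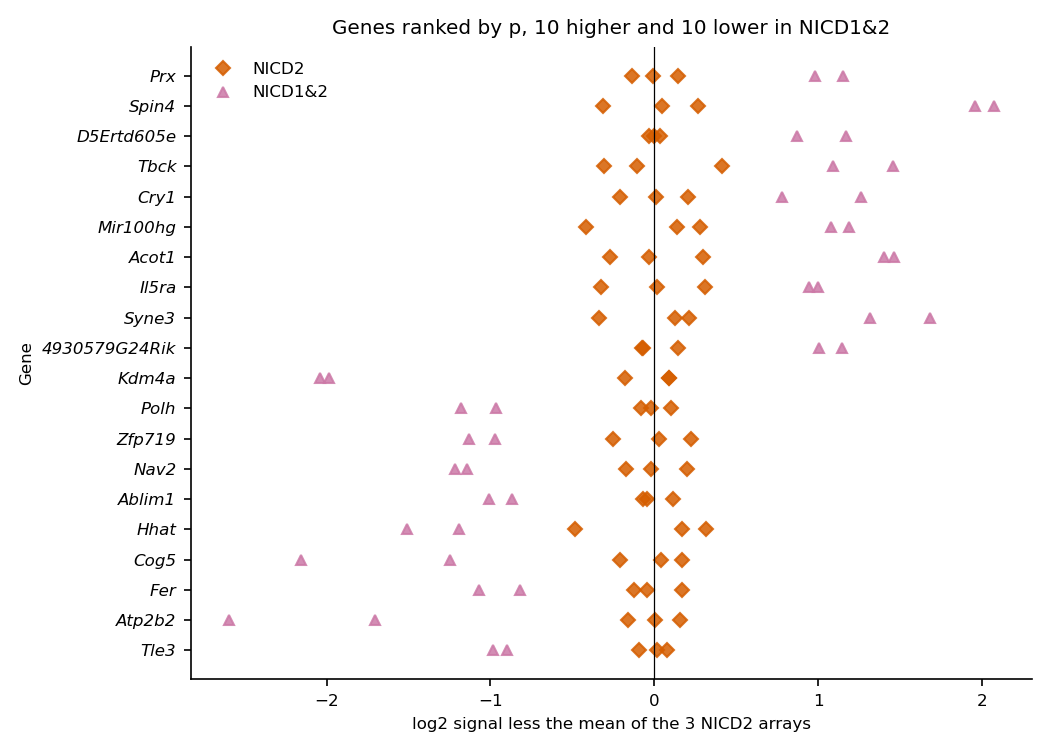
Log2 level of the 20 ranked genes on the 3 NICD2 arrays (diamonds) and 2 NICD1&2 arrays (triangles), less the NICD2 mean of the gene. The groups do not overlap for any of them, because the ranking required it, and of the 20 only Kdm4a passed the adjusted threshold.

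Genes of fatty acid oxidation and PPAR-alpha lay above NICD2 almost throughout. PPAR-alpha is a nuclear receptor that binds fatty acids and drives their oxidation in hepatocytes. Of 23 genes 22 were higher, 20 lay above the median of all genes, and 14 lay above NICD2 without overlap (60.9% beside 18.2% of all genes). Their median difference was 0.28 beside 0.09 for all genes. The median was 0.31 within slide 1, beside 0.03 for all genes there, and 0.13 within slide 2, where all genes also had 0.13. The count above the median of all genes was 13 of 23 without NICD1&2 1 (list 0.26, all genes 0.17) and 15 without NICD2 2. None was called, and 3 were altered, beside 1.78% of all genes altered higher. With quantile normalization the median was 0.14 and 13 of 23 were higher, and with normexp 0.06 and 14, so the direction of the smaller members turns with the scaling.

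The 4 members with differences over 1 were the fatty acid omega-hydroxylases of the Cyp4a family and the acyl-CoA thioesterase Acot1. Cyp4a31 read 5.32, 5.20 and 4.96 on NICD2 and 6.78 and 6.45 on NICD1&2 (1.45 ± 0.51, 2.74-fold, adjusted p = 0.564). Its difference was 1.52 within slide 1 and 1.48 within slide 2. Cyp4a10 read 3.61, 3.42 and 3.39 against 5.14 and 4.46 (1.33 ± 0.52, adjusted p = 0.564), and its other probes gave 1.14 and 1.23. Cyp4a14 read -1.76, -2.73 and -2.12 against -0.28 and -1.31 (1.41 ± 0.97, adjusted p = 0.623). All 3 genes were above every NICD2 array on both NICD1&2 arrays. As close paralogs they may share probe signal, so they are not independent of each other.

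Acot1, a cytosolic thioesterase that releases fatty acids from coenzyme A, had the smallest standard error of the 3 altered. It read 4.17, 3.93 and 4.50 on NICD2 and 5.67 and 5.6 on NICD1&2 (1.43 ± 0.27, 2.70-fold, adjusted p = 0.522). GFP arrays read 4.38, 4.36 and 3.57 and NICD1 arrays 4.39, 4.75 and 4.29, so both NICD1&2 arrays were above all 9 others. Acot2, its mitochondrial paralog, read -0.45, -1.08 and -0.46 against 0.06 and 0.10 (0.74 ± 0.29, adjusted p = 0.564).

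Among enzymes of the oxidation pathway itself, Acadl, an acyl-CoA dehydrogenase, read 5.26, 5.11 and 5.08 against 5.5 and 5.39 (0.30 ± 0.11, adjusted p = 0.564). Cpt1a, which admits fatty acids to mitochondria, overlapped (-0.01 ± 0.15), as did Ppara itself (0.07 ± 0.13). Fgf21, a hormone made under PPAR-alpha, read -3.54, -3.68 and -0.93 on NICD2 and -2.32 and -1.27 on NICD1&2, so a single NICD2 array set its spread (0.92 ± 1.13, adjusted p = 0.761).

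Without NICD2, Cyp4a10 stood at 4.37, 4.16 and 2.39 on GFP and 4.28, 4.56 and 4.85 on NICD1 arrays, a difference of 0.93 ± 0.46 (adjusted p = 0.903) in which GFP 3 lay low. Cyp4a31 had the same shape, at 5.91, 5.72 and 3.92 against 5.76, 6.07 and 6.44. The interaction was 0.40 ± 0.69 for Cyp4a10 and 0.54 ± 0.69 for Cyp4a31 (adjusted p = 0.91 and 0.865). The promoter of Acot1 is shown because this gene was ranked among the higher ones, and it lies at chr12:84009252-84009501 on the plus strand (RefSeq, GRCm38.p6). The PPAR half-site AGGTCA or its reverse complement TGACCT, found in 14% of the promoters, was not in this window.
Acot1: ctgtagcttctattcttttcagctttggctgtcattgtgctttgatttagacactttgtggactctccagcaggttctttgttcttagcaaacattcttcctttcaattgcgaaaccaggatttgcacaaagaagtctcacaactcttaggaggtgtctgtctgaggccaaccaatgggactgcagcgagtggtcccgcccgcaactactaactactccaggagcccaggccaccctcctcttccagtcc

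**Figure D3:**
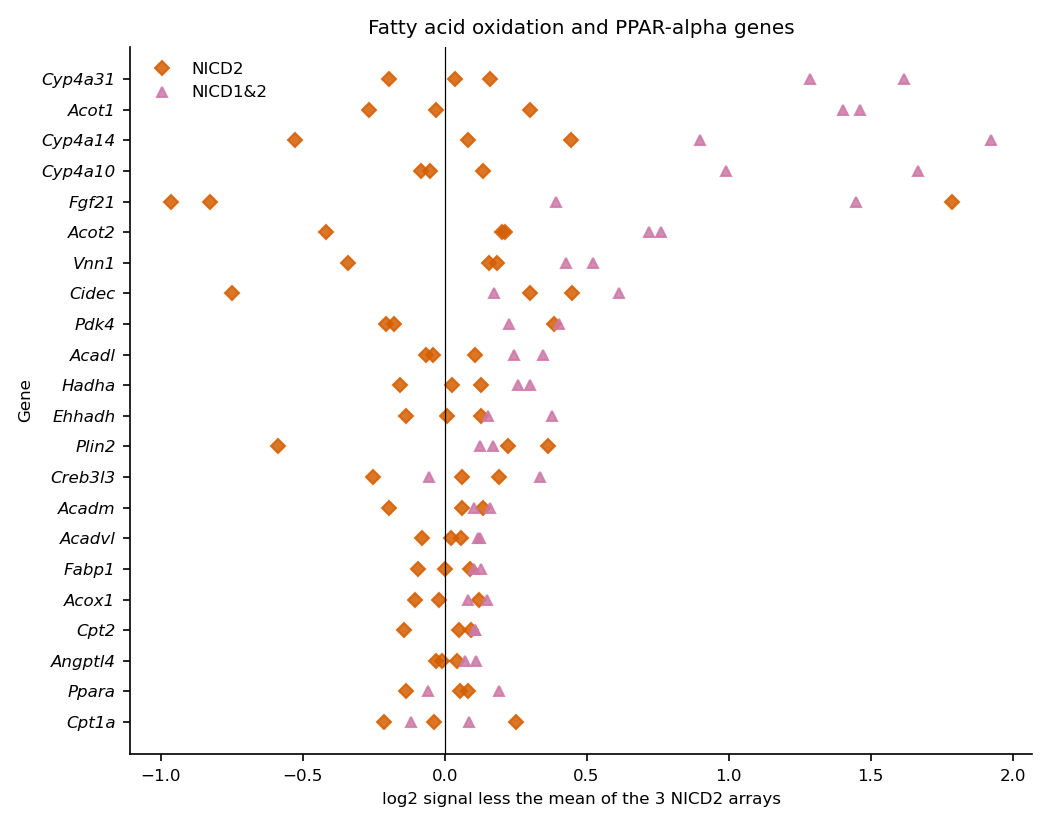
Log2 level of 22 of the 23 fatty acid oxidation and PPAR-alpha genes on the NICD2 (diamonds) and NICD1&2 (triangles) arrays, less the NICD2 mean of each gene. The Cyp4a genes and Acot1 lie apart by over 1 on average, and the oxidation enzyme Acadl by 0.30.

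Other metabolic lists stayed near the median of all genes or below it. Of 17 lipogenic genes 6 were higher (median -0.05). Without overlap 4 of the 17 lay below NICD2, beside 7.27% of all genes, and 1 above it, beside 18.2%. Srebf1, the transcription factor that drives them, read 6.79, 6.70 and 6.62 on NICD2 and 6.04 and 6.25 on NICD1&2 (-0.57 ± 0.14, adjusted p = 0.548). Of 22 genes of cholesterol synthesis and uptake 10 were higher (median -0.01). Among 19 genes of bile acid handling 8 were higher (median -0.02), with Cyp7a1, the rate-limiting enzyme of bile acid synthesis, at 3.47, 3.15 and 3.59 against 2.93 and 2.79 (-0.54 ± 0.22, adjusted p = 0.564). Abcb4, which exports phospholipid into bile, read 6.69, 6.69 and 6.99 against 7.18 and 7.31 (0.46 ± 0.13, adjusted p = 0.564). None of these members was altered. Members named here without being altered were chosen after their values were seen.

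Whether the receptors differ in their effect on cell division and death was a question of the study. Cdk1, the kinase that starts mitosis, and Cdkn1a, the inhibitor p21, bear on it. By quantitative RT-PCR the study reports that co-expressed NICD2 held back the rise of Cdk1 under NICD1. That sets NICD1&2 against NICD1, which is not the comparison made here. Cdk1 read -4.03, -3.65 and -4.23 on NICD2 and -2.86 and -3.86 on NICD1&2, with overlap (0.61 ± 0.31, adjusted p = 0.577). The first NICD1&2 array was in the range of the NICD1 arrays, at -2.68, -3.02 and -2.51, and the other in that of NICD2. On NICD1&2 the probe was well above background on 1 of 2 arrays. Cdkn1a read 2.98, 2.54 and 2.82 on NICD2 and 3.26 and 3.58 on NICD1&2, higher without overlap (0.64 ± 0.44, adjusted p = 0.622), where GFP read 1.19, 1.39 and 2.17. A dimmer Cdkn1a probe overlapped, at -2.27, -2.91 and -2.86 against -2.67 and -2.06 (0.32 ± 0.29).

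Among 36 genes of the G2 and M phases 28 were higher, 0 were called and the median was 0.14. Their 8 members above NICD2 without overlap make 22.2%, beside 18.2% of all genes, and 3 lay below it, beside 7.27%. These shares are near those of all genes. Ckap2, a microtubule-binding protein of the spindle, was the 1 of 36 altered, where 1.78% of all genes were altered higher, at -1.28, -0.89 and -1.06 against -0.30 and 0.32 (1.09 ± 0.26, adjusted p = 0.548). Mki67, the proliferation marker, overlapped (-0.17 ± 0.21), as did cyclin A2, Ccna2 (0.38 ± 0.50). The 37 S phase genes had a median of 0.12, with 28 higher and 0 altered.

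Targets of p53 lay above NICD2 more often, with 20 of 23 higher, 9 without overlap (39.1% beside 18.2%), and a median of 0.30. None was called and none was altered. Their median was 0.21 within slide 1 and 0.47 within slide 2, beside 0.03 and 0.13 for all genes. It ran from 0.17 to 0.51 with other processing or an array left out. Eda2r, a receptor gene, read -0.56, -0.58 and -0.70 on NICD2 and 0.04 and 0.24 on NICD1&2 (0.76 ± 0.19, adjusted p = 0.548). Bax, which opens the outer mitochondrial membrane in apoptosis, read 4.18, 4.2 and 4.1 against 4.49 and 5.19 (0.68 ± 0.21, adjusted p = 0.564). Zmat3, an RNA-binding target, read 0.48, 0.53 and 0.64 against 0.86 and 1.13 (0.45 ± 0.14, adjusted p = 0.564). Trp53, the gene for p53, overlapped and was lower on average (-0.69 ± 0.30), and Gdf15, a stress cytokine, overlapped (-0.29 ± 0.87).

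Without NICD2, the same p53 list had a median of -0.25 in NICD1 less GFP, with 3 of 23 higher. Over 22 pro-apoptotic genes the median was 0.09, that of all genes, with 15 higher. Over 12 anti-apoptotic genes it was -0.01, with 6 higher. Among 17 cell cycle inhibitors 11 were higher, a share below the 66.3% of all genes, and the median of 0.19 was -0.01 within slide 1 and -0.05 within slide 2. Gadd45g, a stress-induced gene, read 4.98, 5.29 and 5.36 on NICD2 and 6.43 and 7.36 on NICD1&2, but GFP arrays ran from 1.92 to 6.37 (1.69 ± 1.16, adjusted p = 0.623).

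In whole liver, more cells of a type and more RNA per cell cannot be told apart. All 7 markers of Kupffer cells and monocytes were higher and 5 lay above NICD2 without overlap (71.4%), where 66.3% of all genes were higher and 18.2% higher without overlap. Their levels gave a summed level of 120.6 to 134 on NICD1&2, 97.0 to 109 on NICD2 and 94.3 to 138.6 on GFP arrays. Marco, a scavenger receptor of macrophages, was the altered one, at 2.40, 2.84 and 2.31 on NICD2 and 4.49 and 2.96 on NICD1&2 (1.21 ± 0.51, adjusted p = 0.564). Its difference was 1.87 within slide 1 and 0.65 within slide 2. Clec4f, a marker restricted to Kupffer cells, overlapped (0.10 ± 0.17).

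Lymphocyte markers were higher for 8 of 9, with a summed level of 4.77 to 4.83 on NICD1&2 and 3.996 to 4.54 on NICD2. GFP arrays had 4.05 to 5.21, a range that holds both NICD1&2 sums. Cd8a was well above background on no NICD1&2 or NICD2 array. Beside them Ikzf3, a lymphocyte transcription factor, read -0.45, -0.97 and -0.68 on NICD2 and -0.35 and -0.22 on NICD1&2 (0.41 ± 0.22, adjusted p = 0.58). Further Ikzf3 probes differed by 0.79 ± 0.28 and 0.77 ± 0.16, without overlap. The last of these was not well above background on any NICD2 or NICD1&2 array. The part of lymphocytes in these differences was not tested. Bile duct markers were higher for 5 of 6, with a summed level of 32.5 to 40.2 beside 22.6 to 30.6. That sum is nearly all Spp1, whose values are given above, and the other 5 markers, among them Krt19, Krt7 and Epcam, overlapped. Stellate cell and sinusoidal endothelial markers had medians of -0.07 and -0.04.

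Among zonation and stress genes, Axin2, a Wnt target of hepatocytes around the central vein, read -4.13, -3.42 and -3.01 on NICD2 and -2.32 and -2.80 on NICD1&2 (0.96 ± 0.40, adjusted p = 0.564). The difference was 1.46 within slide 1 and 0.21 within slide 2. Lgr5, another Wnt-responsive gene of the same zone, lay lower, at -0.67, -0.26 and -0.74 against -1.19 and -1.24 (-0.65 ± 0.20, adjusted p = 0.564). Over the 13 genes of that zone 7 were higher. Hmox1, which degrades heme, read 2.90, 2.92 and 1.90 against 3.44 and 3.60 (0.94 ± 0.30, adjusted p = 0.564), and 15 of 17 genes of the Nrf2 and glutathione list were higher, beside 66.3% of all genes. The median of that list was 0.22, with 0.05 within slide 1 and 0.35 within slide 2, and 0.06 with quantile normalization. The metallothioneins Mt1 and Mt2 overlapped, with differences of -0.14 ± 0.41 and -0.12 ± 0.57. Dusp10, a phosphatase of stress kinases, was not well above background on any of the 5 arrays.

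Of 19 clock genes 5 lay above NICD2 without overlap (26.3%, beside 18.2% of all genes) and 1, Per3, below it (beside 7.27%). The clock runs on the activators Arntl, Clock and Npas2, which bind E-boxes and drive the repressors Per and Cry. Arntl read -3.92, -2.59 and -3.35 on NICD2 and -2.56 and -2.34 on NICD1&2 (0.84 ± 0.39, adjusted p = 0.567). Npas2 met the looser definition but was not well above background on any of the 5 arrays. Cry1 was ranked among the higher genes, at -4.03, -4.44 and -4.22 against -3.45 and -2.97 (1.02 ± 0.18, adjusted p = 0.497), with a brighter probe at 0.43 ± 0.21. Per3 read 1.14, 1.1 and 0.77 against 0.28 and 0.31 (-0.71 ± 0.17, adjusted p = 0.548). Over the 19 clock genes the median was 0.05, below that of all genes, and Clock, Per1, Per2, Nr1d1 and Dbp overlapped. The time of day at which livers were taken is not given in the sources used here.

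The Cry1 promoter, at chr10:85185055-85185304 on the minus strand (RefSeq, GRCm38.p6), is shown with its E-box CACGTG in capitals, 60 bases before the start. This motif reads the same on both strands and is in 6.02% of the promoters.
Cry1: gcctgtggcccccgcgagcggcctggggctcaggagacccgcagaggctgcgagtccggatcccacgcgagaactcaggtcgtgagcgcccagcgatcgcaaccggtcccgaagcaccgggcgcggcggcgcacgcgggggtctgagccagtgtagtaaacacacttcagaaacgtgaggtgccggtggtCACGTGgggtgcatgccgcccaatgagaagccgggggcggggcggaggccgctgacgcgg

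**Figure D4:**
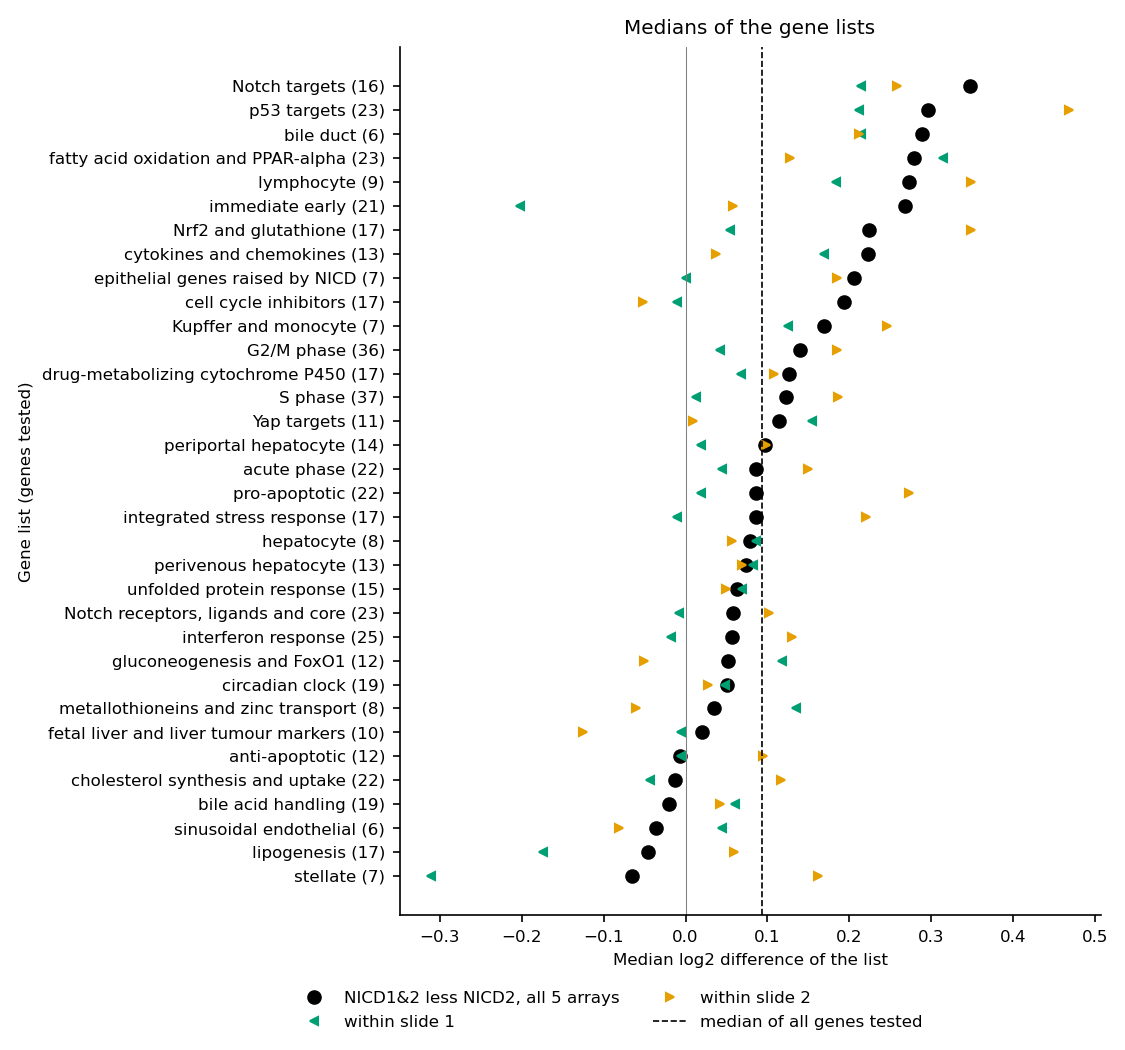
Median log2 difference, NICD1&2 less NICD2, of each gene list with at least 6 genes tested (number in brackets), over all 5 arrays (dots) and within each slide (triangles). The dashed line is the median of all genes, 0.09, and for several lists, such as immediate early genes, the slides lie on opposite sides of 0.

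The effect of NICD1 vector with NICD2 was set beside its effect without NICD2, NICD1 less GFP, which uses other arrays. Of 36049 probes tested, 51.6% differed in the same direction in both. Of the 1105 altered probes 66.8% did so, 73.6% of those higher and 51.2% of those lower, where 53.3% and 46.7% of all probes were higher and lower in NICD1 less GFP. The probes altered higher had a median of 0.30 in NICD1 less GFP and those altered lower a median of -0.03. For all altered probes the share was 53.95% without NICD2 2 and 54.98% without NICD1&2 1. In both comparisons 117 probes were altered, 93 of them in the same direction. The 117 are 10.6% of the 1105, where 2.19% of all probes were altered in NICD1 less GFP. They are 14.8% of the 788 altered there, where 3.07% of all probes were altered in NICD1&2 less NICD2. These shares of all probes are no matched baseline, because a fold threshold is passed more easily by dim and variable probes. Of the 1105, 192 were well above background on all 5 arrays. Whether the overlap exceeds that of equally dim and variable probes was not tested. Across probes the correlation of the differences was r = 0.20, where probes are not independent replicates.

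For the interaction, 0 probes were called by limma, while 2528 (7.01%) reached an unadjusted P under 0.05. The lowest adjusted p values named here were those of Wfdc3 and Nav2, given above. Kdm4a followed at -1.75 ± 0.23 (adjusted p = 0.209) and Pfkfb4 at -1.83 ± 0.29 (adjusted p = 0.353). For Syne3 and Mir100hg the interactions were 2.09 ± 0.39 and 1.49 ± 0.28 (adjusted p = 0.5 for each). For Wfdc3 and Pfkfb4 the interaction reflects a large difference without NICD2 and a small one with it, and for Syne3 and Nav2 it reflects differences of opposite sign.

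**Figure D5:**
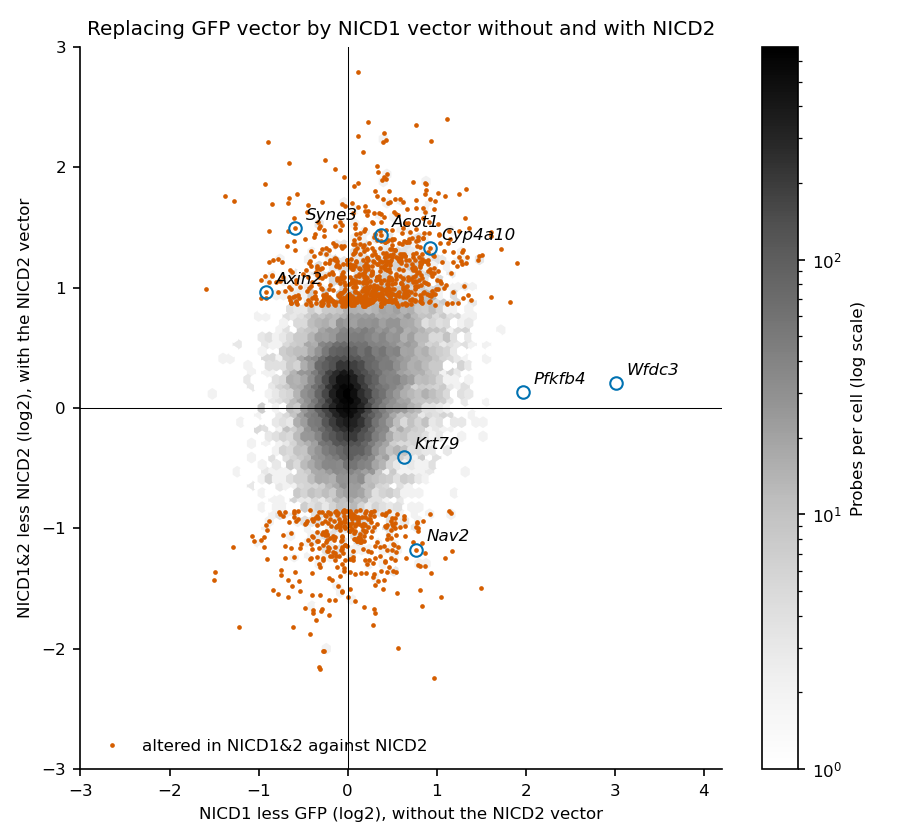
Log2 difference of each tested probe, NICD1 less GFP on the horizontal axis and NICD1&2 less NICD2 on the vertical axis, with grey shading for probe density and colour for the 1105 altered probes. Wfdc3 and Pfkfb4 lie far right and near 0 vertically, Cyp4a10 is high on both axes, and Nav2 and Syne3 lie in quadrants of opposite sign.

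Within slides the comparison gave partly different values. The sign of the difference was the same on slide 1 (NICD1&2 1 less NICD2 1 and NICD2 2) and slide 2 (NICD1&2 2 less NICD2 3) for 59.4% of probes, and the correlation across probes was r = 0.16. All 20 ranked genes kept their direction on both slides, as a ranking by separation favours. The within-slide differences were 1.61 and 1.1 for Acot1, 1.15 and 2.02 for Syne3, and -1.22 and -1.12 for Nav2. For Cdkn1a they were 0.50 and 0.76, and for Hes1 0.13 and -1.07, so the Hes1 direction was not shared by the slides.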

How the data were processed

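RNA of 11 mouse liver samples was hybridized in 1 colour to Agilent arrays. Per the file headers, the deposited signals are intensities from which the authors' Feature Extraction 11.5.1.1 removed background. A deposited table holds log2 values that the authors scaled to the 75th percentile. The methods name another RNA kit (RNeasy Micro) than the labels (NucleoSpin RNA XS). Here spots of a probe were averaged, control spots and spots flagged as outliers were left out, and log2 signals less the 75th percentile of each array were fitted with limma 3.58.1 in R 4.3.3, 1 mean per group over 11 arrays, after testing on simulated data. Genes outside the ranking were read from the probe of highest mean. Where no array of a group lay well above background, signals under the lowest well-above signal were raised to it for the fold. Brighter signals can miss that flag, as Npas2 did at -3.96 on NICD1&2 1, so these folds are no strict lower limits. Depth is not defined for arrays, and the number of arrays limits precision. Groups follow the labels.

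Genes named were the 10 ranked per direction, up to 4 altered members per list, the Notch targets, and genes from earlier results, and further list members chosen after their values were seen. The comparison, members and 38 lists were chosen with earlier results of these data known. Alternatives were quantile and normexp (offset 50) normalization, other filters and thresholds, blocks for slide and replicate number, array weights, only the groups compared, an unmoderated model, the deposited table, and leaving out each array. The values of 1 list member are not reported here. Keeping the flagged spots was chosen after seeing the data. The replicate numbers were not taken as pairs: of 15 same-numbered pairs, 6 had residual correlations over 0.1, and the range was -0.426 to 0.184. Whether the numbers mark pairs is not settled by this.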

Additional observations from a re-analysis of the deposited data

Results flagged for a closer look

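For 7 of the genes named, every array of NICD1 lay on one side of every GFP array and every NICD1&2 array on the opposite side of every NICD2 array. The log2 difference without NICD2 and the one with NICD2 were -0.92 and 0.96 for Axin2, -0.91 and 0.91 for Id1, 0.63 and -0.41 for Krt79, -0.35 and 1.13 for Mir100hg, 0.77 and -1.18 for Nav2, 0.30 and -0.21 for Notch2, and -0.54 and 0.92 for Npas2. The differences between them were tested as interactions and missed the threshold. Their adjusted p values were 0.645 for Axin2, Id1 and Notch2, 0.623 for Krt79, 0.5 for Mir100hg, 0.163 for Nav2 and 0.672 for Npas2. Npas2 was well above background on 2 GFP arrays and on 0 arrays of the other groups, so its values give no measured fold. These values are of 1 probe per gene. A further Axin2 probe overlapped in both comparisons, and a further Nav2 probe overlapped between NICD1 and GFP. Over the array 537 probes (1.49%) had such opposite separation.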

How the results depend on the processing

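The single call was lost (0 probes called) with normexp, no filter, the filter of all 11 arrays, only the groups compared, the unmoderated model, array weights and slide as a block, and leaving out an array gave 0 to 122. The filter of all 11 arrays leaves out the Kdm4a probe itself. Altered probes numbered 378 at P under 0.05 with a fold over 2, 1 at an adjusted p under 0.15, 31 with normexp, 3451 with no filter, 180 with the filter of all 11 arrays, and 797 to 2048 with an array left out (1862 without NICD2 1, 2048 without NICD1&2 1, of which 47.1% were higher). Of altered probes 37.2% were higher with quantile normalization and 86.1% with no filter, beside 69.6%. The interaction gave 1 call with the filter of all 11 arrays and 0 to 8 with an array left out. The share of altered probes with the same direction without NICD2 was 62.5% with quantile normalization, 58.1% with normexp, 61.7% with the filter of all 11 arrays, 63.3% with array weights and 60.9% with slide as a block, and 54.0% to 68.5% with an array left out. The share with the same direction on both slides was 58.5% with quantile normalization, 58.4% with the 75th percentile of only those probes that passed on all 11 arrays (the other percentile), 58.6% with normexp, 63.3% with no filter and 60.2% with the filter of all 11 arrays.

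With the replicate number as a block 0 probes were called and 70.2% of altered probes had the same direction without NICD2. The numbers are not known to pair the samples, so this is not read as a weaker effect.

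Genes near 0 turned sign. Jag1 was -0.0085 with the other percentile and -0.091 with normexp. Gata3 was -0.26 with quantile normalization, -0.037 with the other percentile and -0.0080 with slide as a block. Dusp10 was -0.24, -0.0039 and -0.064 with quantile, the other percentile and normexp. Pnliprp1 was 0.018 with slide as a block. With an array left out the values ran from -0.56 to 0.10 for Hes1, -0.51 to 0.087 for Heyl, -0.22 to 0.85 for Sox9, -0.039 to 0.11 for Jag1, -0.22 to 0.15 for Gata3, -0.22 to 0.10 for Bcl2, -0.10 to 0.51 for Wfdc3, -0.14 to 0.79 for Scgb1a1, -0.32 to 0.27 for Pnliprp1, -0.21 to 0.30 for Dusp10, -0.51 to 0.22 for Mt1 and -0.84 to 0.59 for Mt2.

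Over all alternatives, single genes kept direction and side of the threshold in 894 values, turned sign in 28, lost the call in 11 (Kdm4a, adjusted p = 0.0815 to 0.733) and gained it in 2 (Prx and Cry1). List medians moved by less than the spread between arrays in 511 values and by more in 97. The causes of these changes were not tested. The limits are 2 NICD1&2 arrays, levels near background for many altered probes, and no array with NICD2 vector alone and no GFP vector.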

Other observations

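Of 25 interferon response genes 15 were higher in NICD1&2 than in NICD2, with a median of 0.06, and of 22 acute phase genes 13 were, with a median of 0.09, beside 0.09 for all genes. Cytokines and chemokines were higher for 11 of 13, with a median of 0.22, and 1 lay above NICD2 without overlap (7.69%, beside 18.2% of all genes). None of these genes was called or altered. Without NICD2 the same lists had medians of -0.30, -0.30 and -0.25 in NICD1 less GFP.

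Of 15 unfolded protein response genes 11 were higher, of 17 integrated stress response genes 12, and of 11 Yap targets 9, with medians of 0.06, 0.09 and 0.11. Periportal hepatocyte genes were higher for 8 of 14, with a median of 0.10. Markers of neutrophils, red blood cells, exocrine pancreas and adipocytes had summed levels that overlapped between the groups.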
